A study of Mus musculus with 6 samples.

Results

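The genes described here are 10 imprinted regulators of growth: Phlda2, Igf2, Igf2r, Dlk1, Peg3, Plagl1, Grb10, Mest, Ndn and Zim1, of 19505 genes named on the array. Phlda2 was chosen from its measured values, for its large rise in both Kit lines, so its levels against the control line are given as a description without a test. The other 9 were added as members of the same class. All 10 were measured, each by 1 probe set.

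RNA levels come from 6 mouse arrays of the Affymetrix Clariom S type, 2 for each of 3 derivatives of melan-a, immortalized C57BL/6J melanocytes. The control line, mVec, carries a control vector. The lines mKitK641E(T) and mKitK641E(PT), here T and PT, carry a mutant of Kit, the stem cell factor receptor, and are labelled as transformed melanoma cells. The arrays are titled c-kit(K641E)C3# in T and c-kit(K641E)hi exp in PT, and the sources used here do not explain T, PT or these titles. All 3 lines were grown in RPMI with 10% FBS and no treatment. Each group is 1 line, and the labels do not say whether its 2 arrays are separate cultures, so the errors and p-values below cover only how far these arrays differ, which may be technical.

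Imprinted genes are expressed mainly from the copy inherited from 1 parent, under the control of DNA methylation marks set in the germ line. Many act on the growth of the fetus and placenta: paternally expressed genes such as Igf2 tend to promote growth, and maternally expressed genes such as Phlda2, Igf2r and Grb10 tend to restrain it. Several lie in clusters that share a control region, and Phlda2 lies in such a cluster with Cdkn1c, beside the domain of Igf2 and H19. The arrays measure total RNA of a gene and do not tell the parental copies apart.

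Values are log2 expression as deposited. As background limit each array has the 95th percentile of its own 5222 negative controls, which lay between 8.74 and 9.16, and between 29.0% and 32.6% of the 22206 gene probe sets of an array exceeded it. The negative controls have a long upper tail, and their 99th percentile lay between 12.1 and 13.1. A group was at background when neither of its arrays exceeded the limit. Where only 1 of the groups compared was at background, the fold is computed against the limit and given as "at least", and where both were, no fold is given. Kit stayed at background on all 6 arrays, with 4.68 and 4.97 in mVec, 4.53 and 3.84 in PT and 4.53 and 5.18 in T, and gives no check of the labels. Of 12 melanocyte markers, 11 were not above background on any array, among them Tyr, Dct, Pmel, Mlana and Sox10, and only Mitf exceeded it, on both T arrays.

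All 10 genes matched the RefSeq promoter table (GRCm38.p6). The 250 bases before the annotated start are shown for the 4 genes that were above background on both arrays of a line, so that the gene that was high in the Kit lines can be read beside those that were low there. Each sequence runs 5′ to 3′ on the gene's own strand, and capitals mark CpG dinucleotides, the sites that imprinting methylation uses. Phlda2 is at chr7:143502525-143502774 on the minus strand, Plagl1 at chr10:13090582-13090831 on the plus strand, Igf2r at chr17:12769707-12769956 on the minus strand and Igf2 at chr7:142666817-142667066 on the minus strand. Igf2 has 4 starts in the table, and the most upstream is shown.
Phlda2: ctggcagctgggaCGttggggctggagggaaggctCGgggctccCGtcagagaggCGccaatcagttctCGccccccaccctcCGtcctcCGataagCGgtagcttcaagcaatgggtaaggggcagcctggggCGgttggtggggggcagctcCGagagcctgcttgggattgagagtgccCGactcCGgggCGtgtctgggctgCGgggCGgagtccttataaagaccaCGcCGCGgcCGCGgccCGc
Plagl1: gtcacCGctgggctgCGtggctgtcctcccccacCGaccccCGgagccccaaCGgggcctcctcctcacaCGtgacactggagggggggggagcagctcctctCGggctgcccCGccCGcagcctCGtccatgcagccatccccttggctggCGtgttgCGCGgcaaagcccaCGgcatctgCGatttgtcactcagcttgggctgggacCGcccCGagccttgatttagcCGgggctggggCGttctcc
Igf2r: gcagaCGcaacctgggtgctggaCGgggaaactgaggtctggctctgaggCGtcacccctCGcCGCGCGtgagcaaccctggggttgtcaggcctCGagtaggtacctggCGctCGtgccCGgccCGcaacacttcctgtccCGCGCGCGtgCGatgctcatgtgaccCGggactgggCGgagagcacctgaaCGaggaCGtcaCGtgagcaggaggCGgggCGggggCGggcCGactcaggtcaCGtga
Igf2: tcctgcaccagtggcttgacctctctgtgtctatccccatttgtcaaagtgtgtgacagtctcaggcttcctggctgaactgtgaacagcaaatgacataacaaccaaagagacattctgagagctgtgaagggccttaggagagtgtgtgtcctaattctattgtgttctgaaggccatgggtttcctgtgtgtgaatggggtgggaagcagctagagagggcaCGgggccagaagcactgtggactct

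The Phlda2 stretch holds 21 CpGs, more than 83.7% of the 32851 mouse promoters in the table, whose median is 6.0. Plagl1 has 19, Igf2r 27 and Igf2 1 at the start shown. Grb10, whose sequence is not shown, has 40, more than 98.7% of promoters. The remaining 5 genes have between 5 (Ndn) and 14 (Zim1). The letters GGGCGG, the core of the GC box bound by Sp1, were searched on both strands and occur 2 times in Phlda2, 2 times in Plagl1, 3 times in Igf2r, 5 times in Grb10 and not in the Igf2 stretch, against 32.7% of all promoters with at least 1 match. TATAAA, searched on both strands, occurs in Phlda2 only among the 10 genes, beginning 30 bases before the start, and 12.4% of all promoters hold it. CACGTG, the E-box bound by Mitf and Myc, is in the windows of Igf2r and Plagl1 and in 6.02% of all promoters. These matches describe the windows, and no methylation or binding was measured here.

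Phlda2, a pleckstrin-homology domain protein that restrains placental growth, read 3.90 and 4.56 in mVec, 12.59 and 12.95 in PT and 12.12 and 12.07 in T. The mVec arrays were below the background limit, and all 4 Kit arrays lay far above the mVec arrays without overlap. The group means were 4.23 ± 0.47 in mVec, 12.77 ± 0.25 in PT and 12.10 ± 0.03 in T (SD, n = 2). The difference from mVec was 8.54 in PT and 7.86 in T on the log2 scale, which corresponds to at least 13.7-fold and at least 8.54-fold over the background limit. Leaving out 1 array at a time gave 8.21 to 8.87 in PT and 7.53 to 8.19 in T. Phlda2 was chosen for its rise on these same arrays, so this range describes them and is no test of the rise. Against the 99th percentile of the negative controls, both PT arrays stayed above the limit and both T arrays lay just below it. Between the Kit lines, a contrast not used in its choice, T was lower than PT by 0.68 ± 0.26 (SE), which did not pass the limma test (adjusted p = 0.158).

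**Figure D1:**
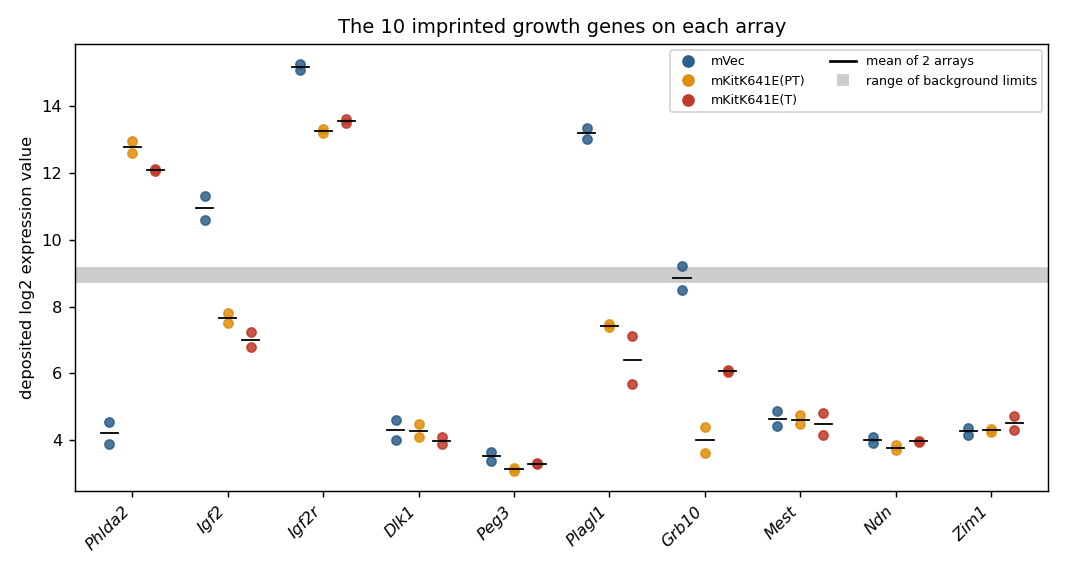
Log2 expression of the 10 imprinted growth genes on each of the 6 arrays (points) by line, with the mean of 2 arrays (lines) and the range of the background limits (grey band). Phlda2 is high on the 4 Kit arrays, Igf2, Igf2r and Plagl1 are high on the 2 mVec arrays, and 5 genes stay under the limit throughout.

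Against mVec, T had 4 of the other 9 genes called lower and 0 called higher (44.4% called). Over all probe sets 32.4% were called in this comparison, 16.9% higher and 15.5% lower. In PT the same count held, 4 of 9 lower and 0 higher, where 35.9% of all probe sets were called, 17.9% higher and 18.0% lower. The 4 were Igf2r, Grb10, Igf2 and Plagl1 in both lines. The median difference of the 9 was -0.32 in T and -0.40 in PT, beside 0.01 and 0.08 over all probe sets, and -0.23 and -0.24 with falls to background taken at their bounds. The genes at these medians (Dlk1 and Peg3 in T, Peg3 and Ndn in PT) were at background in both groups, so the medians describe values under the limit. Both comparisons use the same mVec arrays. Arrays measure bulk RNA, so fewer cells of a type and less RNA per cell cannot be told apart in any of these differences.

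Igf2r, the receptor that takes up IGF2 for lysosomal degradation and the other maternally expressed brake on growth with a strong signal, read 15.26 and 15.10 in mVec, 13.19 and 13.32 in PT and 13.51 and 13.63 in T. All arrays were above background, and the mVec arrays were the highest. Igf2r was 3.81-fold lower in PT (log2 difference -1.93 ± 0.20, limma adjusted p = 3.7e-05) and 3.05-fold lower in T (-1.61 ± 0.20, adjusted p = 0.000165). The difference between T and PT, 0.32 ± 0.20, did not pass (adjusted p = 0.4). Phlda2 was thus higher and Igf2r lower than in the control line, although both are maternally expressed.

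Grb10, an adaptor that binds the insulin and IGF1 receptors and damps their signalling, read 9.23 and 8.49 in mVec, 4.41 and 3.63 in PT and 6.04 and 6.10 in T. Only 1 mVec array exceeded the limit, and the 3 lines did not overlap. The log2 difference from mVec was -4.84 ± 0.32 in PT (limma adjusted p = 1.64e-06) and -2.79 ± 0.32 in T (adjusted p = 8.44e-05). Against the limit the fold was at least 1.02 in T, and no bound above 1 could be given in PT. Of the 10 genes, Grb10 alone was called between the Kit lines, where 8.36% of all probe sets were called, 5.67% higher in T and 2.70% lower. It was higher in T by 2.04 ± 0.32 (adjusted p = 0.0056), with both lines at background. Zim1, a maternally expressed zinc finger gene of the Peg3 domain, lay between 4.17 and 4.73 on all arrays and was not called.

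Igf2, the growth factor whose paternal copy drives fetal growth, read 11.31 and 10.60 in mVec, 7.82 and 7.50 in PT and 7.23 and 6.79 in T. It was above background on both mVec arrays and on no Kit array, although neither mVec array exceeded the 99th percentile of the negative controls. The fall was at least 3.85-fold in PT (log2 difference -3.30 ± 0.28, limma adjusted p = 9.79e-06) and at least 4.35-fold in T (-3.94 ± 0.28, adjusted p = 4.38e-06). T and PT differed by -0.65 ± 0.28, which was not called (adjusted p = 0.215).

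Plagl1, a paternally expressed zinc finger transcription factor that can halt the cell cycle, read 13.36 and 13.03 in mVec, 7.47 and 7.40 in PT and 5.67 and 7.11 in T. The mVec arrays were far above the limit and all 4 Kit arrays below it, and the T arrays differed from each other more than any other pair of arrays of a line among the 10 genes. The fall was at least 18.2-fold in PT (log2 difference -5.76 ± 0.39, limma adjusted p = 2.12e-06) and at least 20.6-fold in T (-6.81 ± 0.39, adjusted p = 1.14e-06). T minus PT was -1.05 ± 0.39 (adjusted p = 0.149). Without T replicate 2 it was -1.77 and called (adjusted p = 0.0192).

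The other paternally expressed members gave no signal above background on any array and were not called in any comparison. Dlk1, a membrane inhibitor of adipocyte differentiation, lay between 3.88 and 4.62. Peg3, a zinc finger protein, lay between 3.09 and 3.66, and Mest, a hydrolase-like protein of mesoderm, between 4.15 and 4.88. Ndn, a MAGE-family protein that restrains proliferation, lay between 3.70 and 4.11. For these genes the arrays show no level that could be compared.

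Of the marker lists of other cells, only that of fibroblasts was called more often than all probe sets. Of 11 measured fibroblast markers, 7 were lower and 2 higher than in mVec in each Kit line. That is 81.8% called, beside 32.4% of all probe sets in T and 35.9% in PT. The log2 of their summed linear level was 17.44 to 17.59 in mVec, 12.56 to 12.74 in T and 11.90 to 12.21 in PT. Lum, Thy1, Fbln1 and Dpt of this list stayed at background throughout, although Lum was called lower and Fbln1 higher in both Kit lines. Col1a2 of this list also rose, from a mean of 5.07 in mVec, at background, to 9.23 in T and 9.22 in PT. Of 14 genes that report RNA quality and handling, 8 were lower and 3 higher in each line (78.6% called). Their summed level was 18.84 to 18.87 in mVec, 18.75 to 18.79 in T and 18.50 to 18.65 in PT. That sum is carried by the brightest genes, such as Actb and Gapdh, and does not show the larger shifts within the list. The mean of Fos was 14.18 in mVec, 7.69 in T and 7.04 in PT, and that of Atf3 was 7.84, 12.29 and 12.22. Of 8 endothelial markers only Cdh5 was above background, in mVec, and it alone was called, lower in both Kit lines (12.5% called in each). The 10 keratinocyte markers and 8 measured leukocyte markers were at background on every array. Of the keratinocyte markers, 2 were called lower in T (20.0%) and 1 in PT (10.0%), and no leukocyte marker was called. The part of these shifts in the falls of Igf2, Igf2r, Plagl1 and Grb10 was not tested.

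The genes around Phlda2 were read in RefSeq order from Igf2 to Osbpl5, a stretch of 34 annotated genes of which 17 were measured besides Igf2 and Phlda2. Only 5 of the 17 were above background on both arrays of a line. In T 2 were called higher and 3 lower, and in PT 1 was higher and 2 lower, so the calls went in both directions beside the shares of 32.4% and 35.9% over all probe sets. Nap1l4, a histone chaperone gene next to Phlda2, read 12.82 and 12.85 in mVec, 12.77 and 13.33 in PT and 12.62 and 12.82 in T. The 3 lines overlapped, and neither difference from mVec was called (T -0.12 ± 0.24, adjusted p = 0.781; PT 0.22 ± 0.24, adjusted p = 0.564).

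Cars, the cysteinyl-tRNA synthetase gene of the same stretch, was named after its values were seen. It read 12.15 and 12.14 in mVec, 14.01 and 14.43 in PT and 13.68 and 13.73 in T, with no overlap between the Kit lines and mVec. Its rise was 4.23-fold in PT (2.08 ± 0.22, limma adjusted p = 3.7e-05) and 2.95-fold in T (1.56 ± 0.22, adjusted p = 0.000332).

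Cdkn1c, the maternally expressed inhibitor of cyclin-dependent kinases best known from this cluster, read 3.86 and 4.49 in mVec, 5.0 and 4.76 in PT and 4.98 and 5.29 in T, all below background. It was called higher in T (0.96 ± 0.26, adjusted p = 0.0165) but not in PT (0.71 ± 0.26, adjusted p = 0.0606). With centred arrays it was called in PT too (0.89, adjusted p = 0.0174). The T call did not hold when T replicate 2 (adjusted p = 0.1) or mVec replicate 1 (adjusted p = 0.159) was left out. Slc22a18, a transporter gene near Phlda2, was also below background throughout and lower in T (-2.30 ± 0.36, adjusted p = 0.000698) and PT (-1.56 ± 0.36, adjusted p = 0.00628), the latter not without mVec replicate 2 (adjusted p = 0.0543). Ascl2, a placental transcription factor, Kcnq1, a potassium channel, and Osbpl5, an oxysterol-binding protein, were below background and not called. Ins2, the insulin gene beside Igf2, was likewise at background.

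Cd81, a tetraspanin gene of the cluster, was the brightest of these neighbours and fell. It read 17.46 and 17.46 in mVec, 14.06 and 14.13 in PT and 15.12 and 15.39 in T, with PT lowest and no overlap. The fall was 10.3-fold in PT (-3.37 ± 0.20, adjusted p = 1.03e-06) and 4.61-fold in T (-2.20 ± 0.20, adjusted p = 2.27e-05). T was higher than PT by 1.16 ± 0.20 (adjusted p = 0.00928). That call did not survive leaving out T replicate 2 (adjusted p = 0.063), PT replicate 1 (0.0691) or PT replicate 2 (0.0502). Tnfrsf23, a decoy receptor, was lower in T (-0.84 ± 0.26, adjusted p = 0.0311) and not called in PT (-0.66 ± 0.26, adjusted p = 0.0755). The PT difference was called with quantile normalization (adjusted p = 0.029) and with limma's trend (0.0374). The T call did not hold with centred arrays (adjusted p = 0.0761), without T replicate 1 (0.165) or without mVec replicate 2 (0.228).

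**Figure D2:**
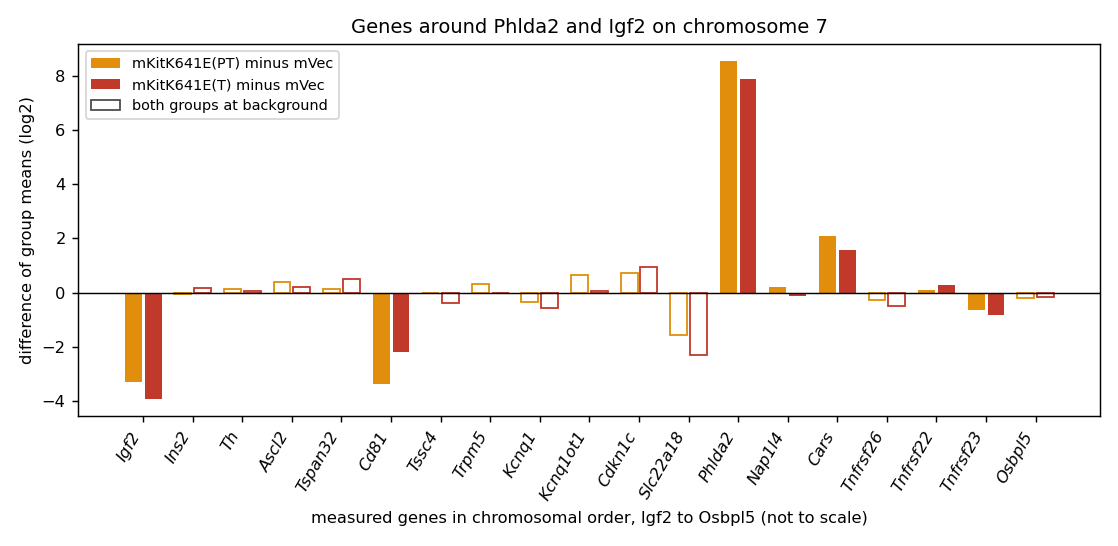
Log2 difference from mVec of the measured genes from Igf2 to Osbpl5 in RefSeq order, for T and PT, as bars of the difference of group means, hollow where both groups compared are at background. Phlda2 is higher by 7.86 in T and 8.54 in PT between Slc22a18 and Nap1l4, and Igf2 and Cd81 are lower in both lines.

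Beyond the 10 genes, 62 imprinted genes were listed and 51 measured, of which 19 were above background on both arrays of a line. In T 20 of the 51 were called (39.2%), 6 higher and 14 lower, and in PT 18 (35.3%), 4 higher and 14 lower. These total shares lie near those over all probe sets, 32.4% in T and 35.9% in PT. By direction, falls outnumbered rises among the 51. Over all probe sets the directions were nearly even, 16.9% higher and 15.5% lower in T and 17.9% higher and 18.0% lower in PT. The difference in split was not tested. Centring the arrays on their medians changed the split to 8 higher and 10 lower in T and to 6 higher and 14 lower in PT. The parental class is as listed, and imprinting in these lines was not measured. By this class, the 30 measured maternally expressed genes gave 4 rises and 8 falls in T and 3 rises and 8 falls in PT. The 21 paternally expressed genes gave 2 rises and 6 falls in T and 1 rise and 6 falls in PT. The called shares were 40.0% and 36.7% in the maternal class and 38.1% and 33.3% in the paternal class, also near the shares over all probe sets. The median difference of the 51 was -0.19 in T and -0.05 in PT, with 31 and 32 of them at background in both groups compared.

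Peg10, a paternally expressed gene of retrotransposon origin needed for the placenta, was among the genes that fell. It read 14.30 and 14.46 in mVec, 7.06 and 6.59 in PT and 7.70 and 7.29 in T, above background in mVec alone. The fall was at least 41.3-fold in PT (-7.55 ± 0.24, adjusted p = 2.76e-08) and at least 46.7-fold in T (-6.88 ± 0.24, adjusted p = 7.46e-08). Sgce, the epsilon-sarcoglycan gene that shares its imprinted promoter region with Peg10, read 12.88 and 13.10 in mVec, 8.89 and 8.75 in PT and 9.52 and 9.69 in T. It was at least 15.7-fold lower in PT (-4.17 ± 0.21, adjusted p = 3.26e-07) and 10.4-fold lower in T (-3.38 ± 0.21, adjusted p = 1.63e-06). Both genes of this pair were lower than in mVec on every Kit array.

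Dcn, the matrix proteoglycan decorin, imprinted in the mouse placenta and also one of the fibroblast markers above, read 14.15 and 13.83 in mVec, 4.99 and 4.85 in PT and 5.79 and 5.12 in T, at least 31.4-fold lower in PT and at least 35.6-fold lower in T (adjusted p = 1.79e-08 and 3.41e-08). Cobl, an actin nucleator gene beside Grb10, was at least 3.63-fold lower in PT (-4.37 ± 0.24, adjusted p = 6.01e-07) and at least 4.11-fold in T (-5.20 ± 0.24, adjusted p = 3.28e-07). Ddc, on the other side of Grb10, was at background and not called.

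Ampd3, an AMP deaminase, was 12.1-fold lower in T (-3.60 ± 0.22, adjusted p = 1.74e-06) and at least 14.3-fold lower in PT (-5.67 ± 0.22, adjusted p = 8.06e-08). Gab1, a docking protein downstream of receptor tyrosine kinases, was at least 1.47-fold lower in T (-2.32, adjusted p = 4.33e-05) and at least 1.30-fold in PT (-3.14, adjusted p = 4.08e-06). Trappc9, a vesicle trafficking subunit, fell by at least 2.73-fold in PT (adjusted p = 5.39e-06) and 3.09-fold in T (adjusted p = 1.23e-05). Copg2, a coatomer subunit in the Mest domain, fell 3.96-fold in PT (-1.98 ± 0.21, adjusted p = 3.62e-05). In T its difference was -0.77 ± 0.21 (adjusted p = 0.0169), a call lost when arrays were centred on their medians (-0.58, adjusted p = 0.0622) and without T replicate 2 or either mVec array (adjusted p from 0.0645 to 0.111). Klf14, also of that domain, was at background.

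Some imprinted genes rose. Commd1, a regulator of copper handling and NF-kappaB, read 11.64 and 11.96 in mVec, 12.49 and 12.77 in PT and 13.08 and 14.11 in T. It was 3.47-fold higher in T (1.79 ± 0.32, adjusted p = 0.00163), while the PT difference of 0.83 ± 0.32 was not called (adjusted p = 0.0737). That PT difference was called with centred arrays (adjusted p = 0.0301), limma's trend (0.0247) and a replicate block (0.0306), but not with quantile normalization. Pon3, a lactonase, rose in T (0.92 ± 0.20, adjusted p = 0.00479) and not in PT (-0.08 ± 0.20, adjusted p = 0.807), whereas its relative Pon2 fell in PT (-1.12 ± 0.21, adjusted p = 0.00197) and was not called in T (-0.32 ± 0.21, adjusted p = 0.315). Ube3a, a ubiquitin ligase, was called in PT (0.87 ± 0.22, adjusted p = 0.0119) and not in T (0.66 ± 0.22, adjusted p = 0.0504). In T it was called with centred arrays (adjusted p = 0.0146), limma's trend (0.0114) and a replicate block (0.0323). The PT call of Ube3a did not hold without PT replicate 1 (adjusted p = 0.0877) or mVec replicate 2 (0.0983). Impact, a translational regulator, was lower in both lines (T -0.65, adjusted p = 0.0315; PT -1.05, adjusted p = 0.00221). Its T call did not hold with centred arrays (adjusted p = 0.108), with quantile normalization (0.0748), with limma's trend (0.0537), or without T replicate 2 (0.121), mVec replicate 1 (0.0986) or mVec replicate 2 (0.173).

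Between the Kit lines 6 of the 51 imprinted genes were called, all higher in T (11.8%, beside 8.36% of all probe sets). Of the 6, 5 are maternally expressed, as are 30 of the 51 and 15 of the 19 above background on both arrays of a line. By class, 16.7% of the 30 maternally and 4.76% of the 21 paternally expressed genes were called. They were Ampd3 (2.08 ± 0.22, adjusted p = 0.00133), Copg2 (1.22 ± 0.21, adjusted p = 0.00808), Cd81, Pon3 (1.01 ± 0.20, adjusted p = 0.015), Sgce (0.78 ± 0.21, adjusted p = 0.049) and Pon2 (0.80 ± 0.21, adjusted p = 0.0493). Of these calls, only that of Ampd3 held whichever array was left out. Those of Sgce (adjusted p 0.0711 to 0.197) and Pon2 (0.0858 to 0.243) were lost without any 1 of the 6 arrays. They were also lost with centred arrays (0.0503 and 0.0572) and with quantile normalization (0.139 and 0.0546). Pon3 was not called without T replicate 2 (0.0777), PT replicate 1 (0.0978) or PT replicate 2 (0.0619), and Copg2 was not called without PT replicate 1 (0.0667).

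**Figure D3:**
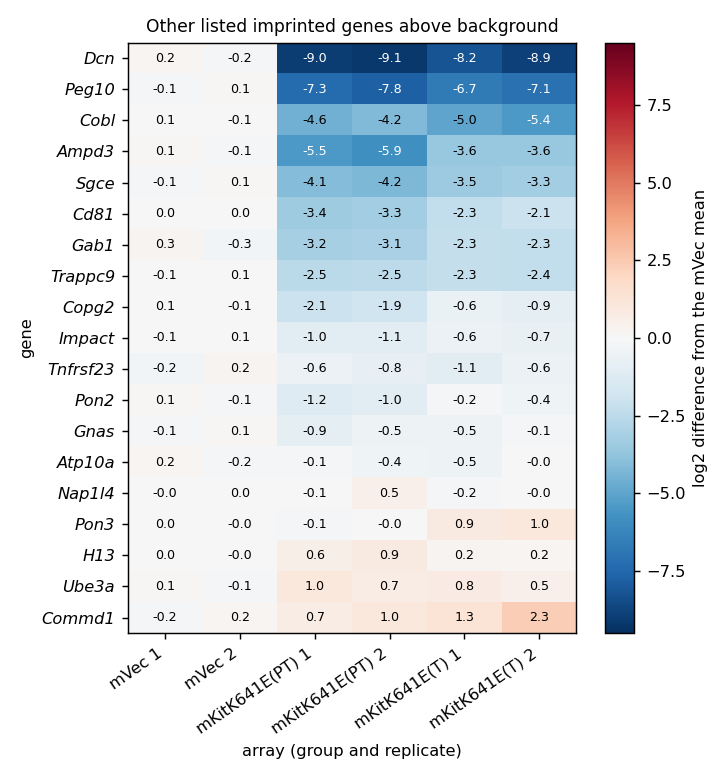
Heat map of the log2 difference from the mVec mean on each of the 6 arrays, for the 19 other listed imprinted genes above background on both arrays of a line. The rows of Dcn, Peg10, Ampd3, Cobl and Sgce are lowest on the 4 Kit arrays, and Commd1 is highest on the T arrays.

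Igf2, Igf2r and Grb10 act on the route by which IGF and insulin receptors signal through IRS adaptors, PI3-kinase and AKT. The PHLDA proteins bind membrane lipids of the class that PI3-kinase acts on and produces. Without the members, 21 listed genes of this route were measured. In T 4 were higher and 7 lower (52.4% called, beside 32.4% of all probe sets), and in PT 5 higher and 8 lower (61.9%, beside 35.9%). Of the 21, 19 were above background on both arrays of a line, as were only 35.3% of all gene probe sets. When those 7836 probe sets were tested alone, 5670 were called in T and 5962 in PT. Those are larger shares than the 52.4% and 61.9% of the route, which come from the test over all probe sets. The route was thus not called more often than probe sets with signal. Igf1, the circulating growth factor, read 13.86 and 13.80 in mVec, 7.88 and 7.07 in PT and 6.53 and 6.06 in T, so it was above background in mVec alone and lower in both Kit lines. The fall was at least 28.2-fold in PT and at least 31.9-fold in T (adjusted p = 1.98e-07 and 1.08e-07). Igf1r, the receptor for IGF1 and IGF2, fell less, by 2.53-fold in PT and 2.57-fold in T (adjusted p = 0.000614 and 0.000664), while the insulin receptor Insr was not called (0.02 in PT, adjusted p = 0.96, and 0.45 in T, adjusted p = 0.167).

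Downstream, Irs1, the adaptor that links these receptors to PI3-kinase, was 3.59-fold lower in PT (-1.84 ± 0.22, adjusted p = 8.74e-05) and at least 4.47-fold lower in T (-2.60 ± 0.22, adjusted p = 1.19e-05). Pik3r1, the regulatory PI3-kinase subunit, read 14.31 and 14.43 in mVec, 10.65 and 10.34 in PT and 11.70 and 11.71 in T, 14.7-fold lower in PT and 6.35-fold lower in T (adjusted p = 5.01e-07 and 7.34e-06). Grb14, the non-imprinted relative of Grb10, was at least 1.13-fold lower in PT (-5.79 ± 0.22, adjusted p = 6.75e-08) and at least 1.28-fold lower in T (-5.99 ± 0.22, adjusted p = 8.4e-08). Not all route genes fell. The catalytic subunit gene Pik3cb rose 3.25-fold in PT and 3.11-fold in T, and Pdpk1, the kinase that activates AKT, 3.26-fold and 1.99-fold. Tsc1, a brake on mTOR signalling, rose 2.88-fold in PT and 1.76-fold in T (adjusted p = 0.000352 and 0.0175). In T, Pdpk1 was not called without mVec replicate 2 (adjusted p = 0.0818), and Tsc1 was not called without T replicate 2 (0.0953) or mVec replicate 2 (0.131). Akt1 was not called (-0.01 in PT, adjusted p = 0.988, and 0.00 in T, adjusted p = 0.995). Akt2 was lower in PT (-0.93 ± 0.24, adjusted p = 0.0121) and not called in T (-0.64 ± 0.24, adjusted p = 0.0742).

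The relatives of Phlda2 did not rise. Phlda1 read 11.02 and 11.10 in mVec, 9.67 and 10.11 in PT and 9.10 and 9.49 in T, with the mVec arrays highest. It fell 2.25-fold in PT (-1.17 ± 0.24, adjusted p = 0.00298) and 3.40-fold in T (-1.76 ± 0.24, adjusted p = 0.000258). Phlda3 was below background on every array, with -0.83 ± 0.27 in T (adjusted p = 0.0418) and -0.58 ± 0.27 in PT (adjusted p = 0.136). Its T call did not hold with centred arrays (adjusted p = 0.115), with quantile normalization (0.119), or without T replicate 1 (0.219), mVec replicate 1 (0.194) or mVec replicate 2 (0.0963).

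**Figure D4:**
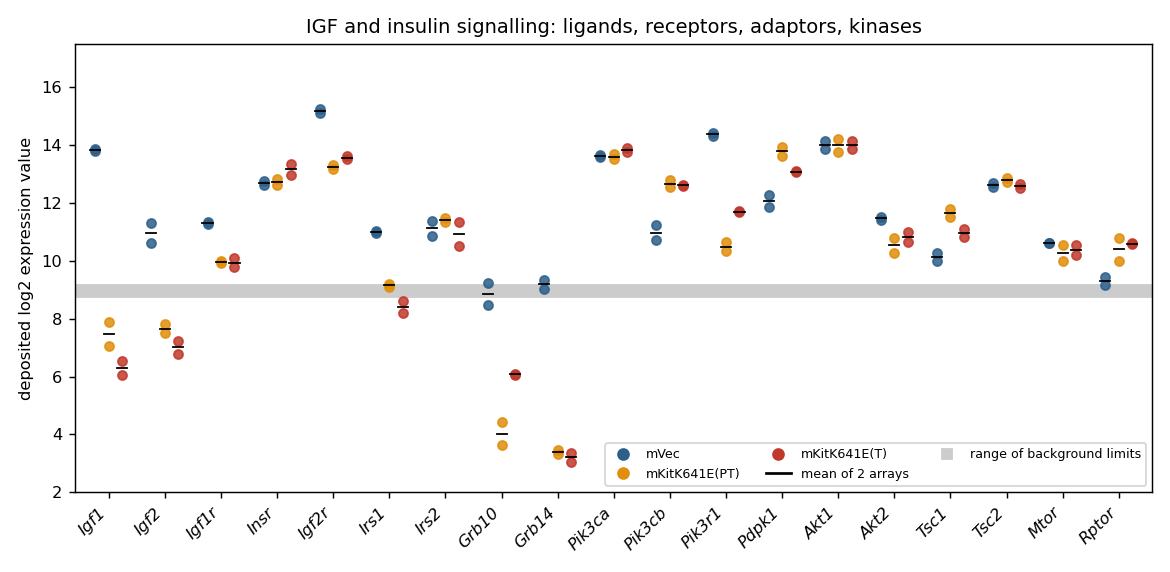
Log2 expression of 19 genes of the IGF and insulin route on each of the 6 arrays (points) with the mean of 2 arrays (lines), the grey band marking the range of background limits. The ligands Igf1 and Igf2 and the adaptors Grb10 and Grb14 are higher on the mVec arrays than on the 4 Kit arrays, and Pik3cb, Pdpk1 and Tsc1 are lower there.

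A list of 21 genes that set or keep imprinting marks was measured in full. In T 8 were higher and 1 lower, and in PT 7 higher and 2 lower, beside the 16.9% and 17.9% of all probe sets called higher. Of the 21, 14 were above background on both arrays of a line, as were only 35.3% of all gene probe sets. When those 7836 probe sets were tested alone, 3232 were called higher in T and 3210 in PT. Rises were thus also frequent among all probe sets with signal. Dnmt3l, called higher in T, and Dnmt3b, called higher in PT, were at background in both groups compared. Uhrf1, which brings Dnmt1 to newly copied DNA, read 7.41 and 8.08 in mVec, 10.62 and 11.01 in PT and 11.54 and 11.48 in T, at background in mVec and above it in both Kit lines. It was at least 3.51-fold higher in PT and at least 5.68-fold in T (adjusted p = 1.01e-05 and 3.85e-06), and Dnmt1, the maintenance methyltransferase, was at least 5.07-fold and at least 2.81-fold higher (adjusted p = 3.77e-06 and 4.39e-05). Zfp57, a zinc finger protein that protects imprints, was at least 1.57-fold higher in PT and at least 2.70-fold in T (adjusted p = 0.000267 and 2.55e-05). Smchd1, a chromatin silencer, was at least 2.94-fold and at least 2.90-fold higher.

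The Polycomb genes Eed and Suz12 rose too, while Ezh2, a Polycomb gene of the same list, was not called. The difference of Ezh2 from mVec was 0.45 ± 0.24 in PT (limma adjusted p = 0.198) and 0.18 ± 0.24 in T (adjusted p = 0.643). Eed was at least 10.1-fold higher in PT (3.64 ± 0.22, adjusted p = 9.2e-07) and at least 4.03-fold in T (2.32 ± 0.22, adjusted p = 2.39e-05), and Suz12 rose 3.02-fold in PT and 2.58-fold in T (adjusted p = 0.0002 and 0.000674). Setdb1, a histone methyltransferase, was called in T (1.08 ± 0.25, adjusted p = 0.00777) and not in PT (0.49 ± 0.25, adjusted p = 0.173). Trim28, the cofactor through which Zfp57 acts, and Zfp445, a partner of Zfp57, were not called in either line.

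The genes whose 6-array profile was most like that of Phlda2, by root mean square distance of log2 values after centring each gene, were Gprc5a (0.227), Bcat1 (0.287), Foxr2 (0.334), Tnfrsf10b (0.488) and Pde3b (0.638), out of 7127 candidates. They share the 6 arrays and their off-in-mVec pattern, which 554 gene probe sets (2.49%) show, so this is a description only. Gprc5a, a retinoic acid-induced membrane receptor, read 5.05 and 5.58 in mVec, 14.05 and 13.83 in PT and 12.87 and 13.23 in T, and Tnfrsf10b, the TRAIL death receptor, 4.33 and 4.29, 13.02 and 12.78, and 11.56 and 11.15. Both were below background in mVec and above it on all 4 Kit arrays. The reverse pattern, above background on both mVec arrays and on no Kit array, which Igf2 and Plagl1 share, was shown by 649 gene probe sets (2.92%).

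**Figure D5:**
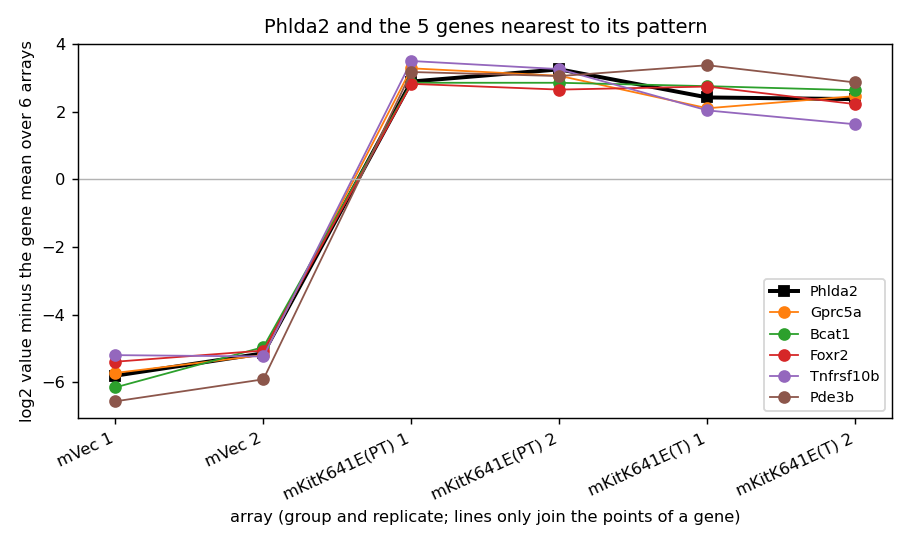
Log2 value of each gene minus its mean over the 6 arrays, for Phlda2 and the 5 genes with the nearest profile, by array, with lines that only join the points of a gene. All 6 genes are low on the 2 mVec arrays and high on the 4 Kit arrays.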

How the data were processed

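Total RNA from the 6 samples was hybridised to Clariom S arrays, per the labels. For each array and probe set the authors deposited 1 log2 value, normalized in a way the sources used here do not give. The unit was inferred from the range, with array medians between 5.64 and 5.89. Tests ran over the 22206 gene probe sets of 28846 rows, leaving out 6640 controls and others. The probe-gene table names 19572 probe sets with 1 symbol and 2634 with none. The values were taken as they are, with no filter, into 1 limma model (limma 3.58.1, R 4.3.3) with a mean for each line, 3 residual and 6.36 prior degrees of freedom. P-values are two-sided, adjusted by Benjamini-Hochberg over all gene probe sets within a comparison, and called under 0.05. Errors after ± are SE of that fit unless marked SD. The fit was checked on simulated data. The members and gene lists were chosen with earlier results of these data known, and the background limit was set after the data were seen.

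The text names all 10 members, their listed cluster neighbours, up to 12 other imprinted genes and up to 8 genes each of the signalling and imprint control lists with the largest called differences above background, the paralogs Phlda1 and Phlda3, marker genes as checks, and the 5 nearest profiles. Of the cluster neighbours, Slc22a2, Dio3, Usp29, Magel2, Mkrn3 and Peg12 were at background on every array and were not called in any comparison. Other listed genes are given as values. Listed genes that were not measured, among them H19, Meg3, Airn and Snrpn, are not analysed here. Where a gene has several probe sets, the one with the highest mean was used. No pairing by replicate number was used in the fit: deviations from group means of same-numbered arrays correlated at 0.0823 (T and PT), 0.0428 (T and mVec) and 0.0396 (PT and mVec). Within a line, the 2 arrays correlated at 0.993 in T, 0.994 in PT and 0.995 in mVec, across gene probe sets, which are not independent replicates. The number of arrays limits the precision, and the alternatives tried were centring, quantile normalization, filters on dim probe sets, limma's trend and robust options, fits on only the lines compared, a replicate block, the mean of a gene's probe sets and leaving out each array. Promoter windows come from RefSeq, GRCm38.p6, and gene order from a RefSeq table, with no coordinates of genes printed because no build is given for the array.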

Additional observations from a re-analysis of the deposited data

Results flagged for a closer look

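The genes below drew attention because the difference between the Kit lines passed the limma test of T minus PT itself (adjusted p under 0.05). Of the 10 imprinted growth genes, Grb10 was higher in T by 2.04, with both lines at background. Of the other imprinted genes, Ampd3 was higher in T by 2.08, Copg2 by 1.22, Cd81 by 1.16, Pon3 by 1.01, Pon2 by 0.80 and Sgce by 0.78. In the signalling list Pik3r1 was higher in T by 1.21, and Igf1 differed by -1.18 with both lines at background. Eed of the imprint control list differed by -1.32 (T lower). Dnmt3l and Kdm1b of the same list went the other way, higher in T by 2.2 and 1.84, with both lines at background. For Dnmt3l and Kdm1b no result of leaving out arrays is given here. Tnfrsf10b, whose profile is near that of Phlda2, differed by -1.54. Each of these comparisons has 2 arrays a line. The call of Igf1 did not hold without any of T replicate 2 (adjusted p = 0.21), PT replicate 1 (0.227) or either mVec array (0.0617). That of Pik3r1 did not hold without T replicate 2 (0.0507) or PT replicate 2 (0.0625), and that of Eed without PT replicate 1 (0.0629). The calls of Grb10, Ampd3 and Tnfrsf10b held whichever array was left out, and those of Cd81, Copg2, Pon2, Pon3 and Sgce did not.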

How the results depend on the processing

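The 4 falls among the other 9 growth genes were called under every alternative that tested them. With probe sets limited to those above background in a line, Grb10 was not tested and 3 remained called in each Kit line. Phlda2 was not tested against mVec. With the 99th percentile of the negative controls as limit, an alternative chosen after seeing the data, 3 of the 10 genes exceeded background on at least 1 array, against 5. Of the single values of the 10 genes, 386 of 387 kept their side of the threshold and 1 gained a call, and none reversed. Of 2331 values of other named genes, 2222 kept their side, 63 lost a call, 46 gained one and 0 reversed, and 64 of all 2718 values, each of a difference that was not called, took the other sign. Between T and PT, limiting the test to probe sets above background gave 0 called members of 4 tested, since Grb10 was left out, and 10 called imprinted genes against 6. Leaving out 1 array gave 549 to 1714 called probe sets against 1857, 1 to 2 members against 1 and 1 to 5 imprinted genes against 6. The cause was not tested. With the replicate number as a block, 4 of 9 members were called in each Kit line against mVec and 1 of 10 between T and PT, and the calls among imprinted genes were 21, 20 and 4. Centring raised all differences from mVec by 0.18 in T and 0.19 in PT, and raised the share of calls that were higher from 52.3% to 62.3% in T and from 49.9% to 60.3% in PT.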

Other observations

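Of the imprinted genes called in T, 6 were below background in both lines compared, and in PT 5 were. Among these, Slc38a4, an amino acid transporter that is paternally expressed in the mouse, read 6.07 and 5.62 in mVec, 4.11 and 4.24 in PT and 4.24 and 4.52 in T, lower in both Kit lines without overlap (T -1.46 ± 0.23, adjusted p = 0.000751; PT -1.67 ± 0.23, adjusted p = 0.000258). Gatm, the arginine:glycine amidinotransferase of creatine synthesis, went the other way, from 4.46 and 3.93 in mVec to 8.39 and 8.41 in PT and 9.25 and 8.64 in T, where only 1 T array exceeded the limit. Both genes were named after their values were seen.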
